A study of Mus musculus with 47 samples.

Results

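Basal cells of the mouse mammary gland were compared between mid pregnancy and the onset of lactation. The comparison rests on 5 of the 46 RNA-seq libraries with values, chosen by their labels alone: the basal libraries of pregnancy day 14.5 (P14.5; replicates 3 and 5) and of lactation day 3 (L3; replicates 4, 5 and 6). The series as a whole followed luminal and basal epithelial cells through pregnancy, lactation and involution, and holds 22 basal and 24 luminal libraries in 16 conditions. The mice of these libraries were FVB/N females mated at 8 weeks of age. P14.5 glands were taken 14.5 days after mating, and L3 glands 3 days after birth. Basal cells were sorted as lineage-negative, CD24-positive, CD29-high cells, from the glands of several mice pooled for each sort, and the gates were adjusted slightly at each sort. The P14.5 libraries share a lane and an amplification batch, and the L3 libraries share another lane and another batch, so time point, lane and amplification batch cannot be told apart. Another P14.5 basal sample was set aside by the submitters as an outlier and was not analysed here.

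Basal cells line the outside of the ducts and alveoli and rest on the basement membrane. Most of them are myoepithelial: they carry the actin, myosin and regulatory proteins of smooth muscle, and they contract when oxytocin, released during suckling, binds its receptor on them, which drives milk from the alveoli into the ducts. The milk itself is made by luminal cells, whose secretory differentiation begins in mid pregnancy and becomes full secretion around birth. The basal fraction is also known to hold cells with the capacity to rebuild a gland on transplantation.

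The P14.5 libraries held 4463977 and 5658476 reads on genes, and the L3 libraries 14028675, 9625119 and 11147738, here and below in the order of replicates 3 and 5 and of replicates 4, 5 and 6. Every L3 library was therefore deeper than both P14.5 libraries. Expression is given in CPM, the submitters' read counts scaled to library size, for which 3 reads were worth 0.241 to 0.620 CPM in these libraries. Across the 10580 genes with a mean of at least 5 CPM, the squared correlation of log2(CPM + 1) was 0.853 between the P14.5 libraries, 0.809 to 0.876 between L3 libraries and 0.667 to 0.774 between a P14.5 and an L3 library. These are correlations across genes, which are not independent replicates.

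The label of basal cells was checked against 10 basal markers, all of which were measured in all 5 libraries. Their summed level was 22785 and 16483 CPM at P14.5 and 79908, 79954 and 41963 CPM at L3, and *Acta2*, which encodes smooth muscle actin, or *Myh11*, which encodes its myosin heavy chain, was the most abundant. *Krt14*, a basal keratin, did not set the time points apart and was at 1059.7 and 434 CPM and at 1132, 1068 and 720.4 CPM, with overlapping groups. The sum of 14 luminal markers was 1133 and 4029 CPM at P14.5 and 2022, 1230 and 1307 CPM at L3, compared with at least 11077 CPM in each luminal library of these time points. P14.5 replicate 5 stood apart with the highest luminal sum of the 5 libraries, and at P14.5 replicate 3 *Foxa1*, a defining luminal marker, was at 0.

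RNA of other cell types also varied between the libraries. The sum of 10 fibroblast markers was 12250 and 6144 CPM at P14.5 and 853, 1429 and 6383 CPM at L3, led by the collagen genes *Col3a1* and *Col1a1* or by *Dcn*, compared with at most 297 CPM in the luminal libraries. Pericyte markers, led by *Rgs5*, summed to 1359 and 1248 CPM and to 1652, 3972 and 7665 CPM. Endothelial markers, led by *Vwf* or *Cdh5*, summed to 927 and 367 CPM and to 964, 1023 and 1589 CPM. L3 replicate 6 thus held the most fibroblast and pericyte marker RNA of the L3 libraries and the least RNA of basal markers. Immune markers did not exceed 120.0 CPM in any of the 5 libraries, with *Cd52* at 0 in P14.5 replicate 5 and L3 replicate 5, and *Ly6c1* or *Cd68* the most abundant. In bulk libraries, fewer cells of a type and less RNA per cell cannot be told apart, and the part of these other cell types in the changes that follow was not tested.

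**Figure D1:**
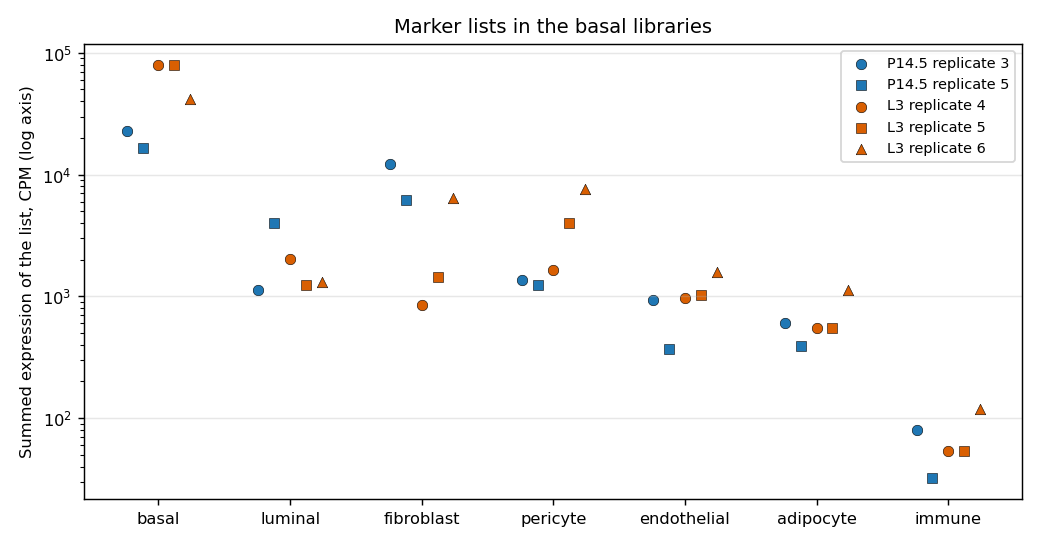
Summed expression (CPM, log axis) of 7 marker lists in the 2 P14.5 and 3 L3 basal libraries, one point per library. Basal marker RNA was highest at L3, luminal marker RNA was highest in P14.5 replicate 5, and fibroblast marker RNA was lowest in L3 replicates 4 and 5.

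Genes that changed between P14.5 and L3 were identified with limma, in a model of all 16 conditions on log2(CPM + 1), and were called when they differed by a factor of 2 or more with a false discovery rate below 0.01. Of 17078 genes, 376 rose (2.2%) and 289 fell (1.69%) in basal cells, 665 in all (3.89%), and the median log2 fold change over all genes was 0.02. The P14.5 and L3 libraries did not overlap for 373 of the genes that rose and 287 of those that fell, whereas L3 lay wholly above P14.5 for 18.6% of all genes and wholly below for 17.9%. With edgeR's quasi-likelihood test on the recovered reads, 119 genes rose (0.697%) and 253 fell (1.48%), and these included all 119 and 205 of the limma calls, so that rises were 56.5% of the calls with limma and 32.0% with edgeR. With a pseudocount of 0.1 in place of 1, rises were 45.3% of the calls.

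The number of calls rested on single libraries. Without P14.5 replicate 5, the library with the most luminal marker RNA, 40 genes rose and 46 fell, of which 39 and 35 were among the genes above. Without P14.5 replicate 3, 233 rose and 200 fell, and without L3 replicate 5, 191 rose and 153 fell. When the spread was estimated from the 22 basal libraries alone, 138 rose and 113 fell. Values are therefore given for each library.

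The 12 genes with the largest rise were *Csn1s2b*, *Lep*, *Tnni2*, *Wap*, *Wfdc17*, *Casq2*, *Ptprz1*, *Sncg*, *Timp4*, *Xkr4*, *Hspb6* and *Mrgprf*. All 12 rose with limma, and 7 of them also with edgeR (*Csn1s2b*, *Lep*, *Tnni2*, *Wfdc17*, *Casq2*, *Ptprz1* and *Hspb6*). Called without P14.5 replicate 5 were 6 genes (*Csn1s2b*, *Lep*, *Tnni2*, *Wfdc17*, *Timp4* and *Hspb6*), and the adjusted p of the other 6 was then 0.011 to 0.165.

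*Lep* encodes leptin, a hormone that signals energy stores and is best known from adipocytes. It was at 1.24 and 0.494 CPM at P14.5 and at 210, 138 and 238 CPM at L3 (log2 fold change on the log2(CPM + 1) scale 6.71 ± 0.54, SE, adjusted p = 1.3e-10). All 3 L3 libraries were far above both P14.5 libraries. *Lep* remained at 167 to 278 CPM in the 2 basal libraries of lactation day 10 (L10), and its highest value in a basal library of P3.5, W10 (10 weeks, not pregnant) or Id2 (2 days after weaning) was 10.9 CPM. In luminal cells its mean was 0.129 CPM at P14.5 and 0.904 CPM at L3 (n = 3 each). Of the adipocyte markers, 4 of 8 were measured. *Plin1*, which coats the lipid droplets of adipocytes, was at 1.03 and 0 CPM and at 2.01, 19.7 and 6.31 CPM (log2 fold change 2.43 ± 0.49, adjusted p = 0.0013, and 0.097 with edgeR). *Fabp4*, a fatty acid carrier of adipocytes and endothelium, was at 251 and 92.5 CPM and at 276, 322 and 687 CPM, and *Lpl*, lipoprotein lipase, was at 352 and 298 CPM and at 65.2, 71.8 and 195 CPM. The 4 adipocyte markers summed to 606 and 391 CPM at P14.5 and to 553, 551 and 1126 CPM at L3, and *Lep* included, the groups overlapped. L3 replicate 6 was the highest in both the sum and *Lep*.

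*Tnni2* encodes the inhibitory troponin subunit of fast skeletal muscle. It had no reads in either P14.5 library and was at 96.0, 66.6 and 19.5 CPM at L3 (adjusted p = 1.3e-10). Taken against 3 reads in the shallower P14.5 library, it was at least 98.0-fold higher at L3. *Casq2*, which encodes the calcium-binding protein calsequestrin of the muscle sarcoplasmic reticulum, was at 15.3 and 4.44 CPM and at 219, 219.9 and 125 CPM (log2 fold change 4.28 ± 0.65, adjusted p = 6.4e-05). *Hspb6*, which encodes a small heat shock protein of muscle, was at 40.5 and 31.8 CPM and at 494, 709 and 232 CPM (3.56 ± 0.57, adjusted p = 1.2e-04). The groups were apart for all 3 genes, and L3 replicate 6 was the lowest of the L3 libraries.

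Among the remaining large rises, *Ptprz1*, a receptor tyrosine phosphatase, was at 2.48 and 3.13 CPM at P14.5 and at 76.4, 119.7 and 39.8 CPM at L3 (4.26 ± 0.75). *Sncg*, which encodes gamma-synuclein, was at 9.5 and 0.988 CPM and at 28.7, 94.8 and 77 CPM (3.73 ± 0.80). *Timp4*, an inhibitor of matrix metalloproteinases, was at 0.207 and 0.165 CPM and at 11.5, 14.2 and 13.8 CPM. The P14.5 values of *Timp4* stand for 1 read in each library, so the size of its change depends on the pseudocount, while the L3 values were close to each other. *Xkr4* was at 1.45 and 0.988 CPM and at 30.9, 40.7 and 12.3 CPM, and *Mrgprf*, an orphan receptor, at 5.99 and 3.29 CPM and at 47.6, 105 and 49.6 CPM. Their log2 fold changes were 3.56 and 3.55, with no overlap between the groups. In the basal libraries of W10, *Xkr4* was at 20.7 to 42.2 CPM and *Ptprz1* at 17.8 to 47.6 CPM, each overlapping L3. *Sncg*, *Timp4* and *Mrgprf* did not exceed 3.15, 0.31 and 1.36 CPM there.

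**Figure D2:**
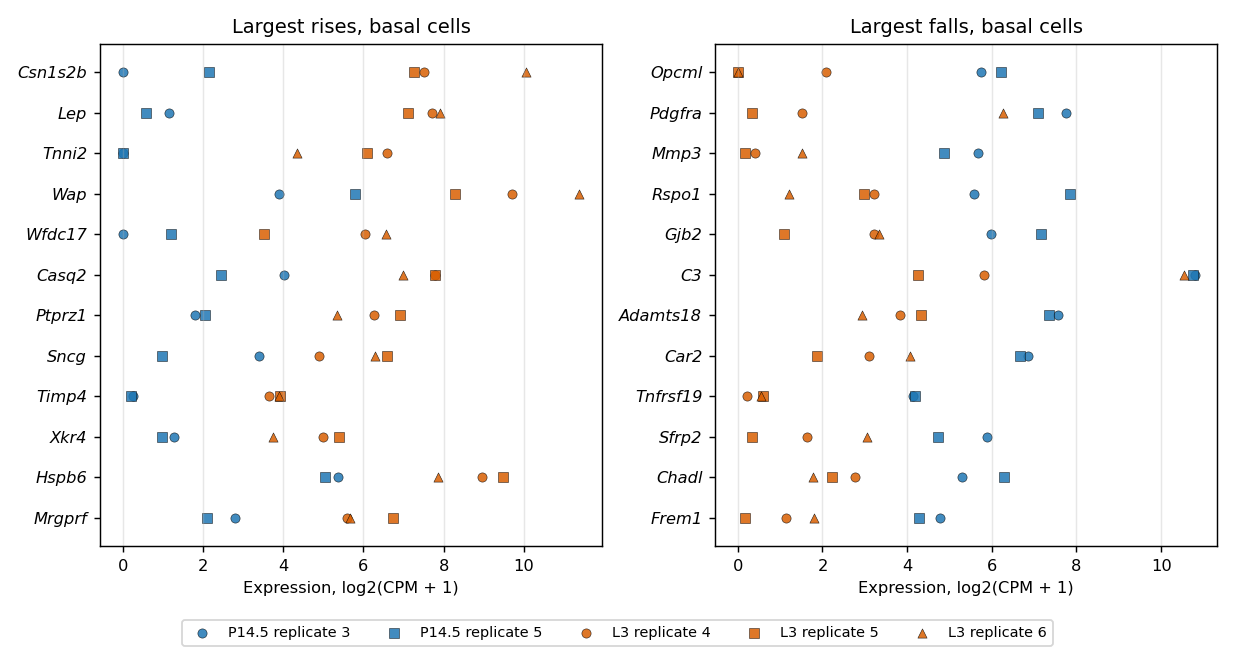
Expression, as log2(CPM + 1), of the 12 genes with the largest rise and the 12 with the largest fall from P14.5 to L3 in basal cells, one point per library and one row per gene. The groups are apart in every row, as the choice of genes required, and the L3 points of *Pdgfra* and *C3* are spread widest, with L3 replicate 6 near P14.5.

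Genes of the contractile apparatus, taken as a list of 27 actin, myosin, tropomyosin and regulatory genes, were all measured. Of these, 8 rose, compared with 2.2% of all genes, and none fell, and the 8 were *Synpo2*, *Des*, *Lmod1*, *Smtn*, *Tagln*, *Cald1*, *Myl6* and *Mrtfa*. The median log2 fold change of the list was 1.71, compared with 0.02 over all genes tested, and the fold change was above 0 for all 27 genes. For 26 of the 27 the L3 libraries lay wholly above the P14.5 libraries, which held for 18.6% of all genes. The median was 1.58 without P14.5 replicate 5 and 1.87 without P14.5 replicate 3. With edgeR 1 of the 27 rose (*Smtn*), without P14.5 replicate 5 none did, at adjusted p of 0.035 to 0.200 for the 8 genes, and with the sort as a block *Des* and *Mrtfa* missed the threshold (0.012 for *Des*).

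*Smtn*, which encodes the actin-binding protein smoothelin of contractile smooth muscle, was at 212 and 98.4 CPM at P14.5 and at 701, 959 and 530.4 CPM at L3 (2.29 ± 0.38, adjusted p = 1.5e-04, and 0.0015 with edgeR). *Synpo2*, an actin-bundling protein gene, was at 334 and 187 CPM and at 2240.4, 2318 and 1017 CPM (2.80 ± 0.62). *Lmod1*, whose product nucleates actin filaments in smooth muscle, was at 178 and 169 CPM and at 1059, 1674 and 792 CPM (2.68 ± 0.58). In all 3 genes L3 replicate 6 had the lowest L3 value, and it was still above both P14.5 libraries. *Tagln*, which encodes transgelin, was at 465 and 369 CPM and at 2273, 2303 and 1119 CPM (2.12 ± 0.52). *Cald1*, caldesmon, which restrains the actin and myosin interaction, was at 2760.3 and 1954 CPM and at 9229, 11538 and 5992 CPM (1.89 ± 0.43). *Des*, desmin, is also a pericyte marker and was at 36.1 and 19.8 CPM and at 102, 254 and 262 CPM (2.78 ± 0.70). *Des* was highest in L3 replicate 6, the library with the most pericyte marker RNA. *Mrtfa*, a coactivator of serum response factor, was at 81.2 and 86.4 CPM and at 208, 230.0 and 207 CPM, with little spread in either group.

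The most abundant contractile genes did not pass the test although their groups did not overlap. *Acta2* was at 8612 and 6631 CPM at P14.5 and at 29688, 24157 and 12014 CPM at L3 (1.44 ± 0.69, adjusted p = 0.18). *Myh11* was at 5755 and 3845 CPM and at 24320.0, 31707 and 17227 CPM (2.33 ± 0.72, adjusted p = 0.033). *Tpm2* and *Actg2*, encoding a tropomyosin and the enteric smooth muscle actin, had log2 fold changes of 2.50 ± 0.74 and 2.46 ± 0.82 (adjusted p = 0.024 and 0.047). The standard errors of these genes, between 0.69 and 0.82, exceeded those of *Smtn* and *Cald1*. A standard error of this model pools the spread within all 16 conditions and does not measure that of the 5 compared libraries alone. *Acta2*, for example, ran from 515 to 8399 CPM in the basal libraries of Id2. *Myocd*, which encodes the smooth muscle coactivator myocardin, was at 12.0 and 20.4 CPM and at 38.0, 99.5 and 126 CPM (2.25 ± 0.71, adjusted p = 0.035). Like *Des*, it was highest in L3 replicate 6, the library with the most pericyte marker RNA.

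**Figure D3:**
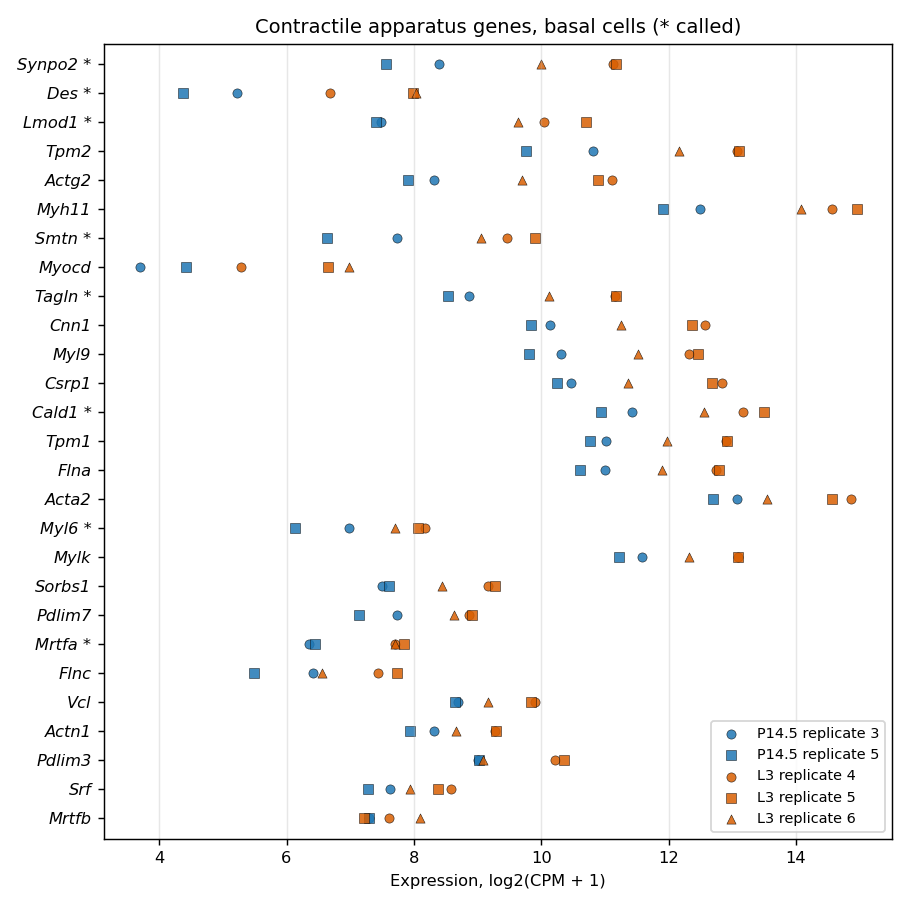
Expression, as log2(CPM + 1), of the 27 contractile apparatus genes in the 5 basal libraries, ordered by log2 fold change, with an asterisk on the 8 genes that passed the test. In 26 of the 27 genes the 3 L3 points lie to the right of both P14.5 points, and L3 replicate 6 is often the lowest of the L3 points.

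Many smooth muscle genes carry a CArG box, the binding element of serum response factor, near their start. The box was searched by name on both strands, where it reads alike, from 250 bases before to 50 bases after each start site in RefSeq (GRCm38.p6). It was present in 189 of 11722 measured genes with a promoter sequence (1.61%), in 9 of 282 genes that rose (3.19%) and in 2 of 201 genes that fell (0.995%). Of the 27 contractile genes, 22 had a promoter sequence and 4 held a box (*Myl6*, *Myl9*, *Srf* and *Vcl*), of which *Myl6* rose. A match is a description of these letters and not of binding, and no match says only that they are not in this window. The windows of these 4 genes are shown because they are the contractile genes with a box, and those of *Acta1* and *Actc1*, chosen after their values were seen, because these striated muscle actin genes rose. The box nearest to the start site is in capitals, and *Srf* holds another 72 bases from its start, with which its printed window opens in lower case. Each sequence reads 5′ to 3′ along its gene, and the windows are, in the order printed, chr10:128493030-128493079 (minus strand), chr2:156775283-156775332 (plus), chr17:46556195-46556244 (minus), chr14:20929151-20929200 (plus), chr8:123894819-123894868 (minus) and chr2:114052893-114052942 (minus).
Myl6: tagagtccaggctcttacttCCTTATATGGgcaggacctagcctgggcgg
Myl9: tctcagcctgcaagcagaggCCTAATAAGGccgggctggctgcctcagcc
Srf: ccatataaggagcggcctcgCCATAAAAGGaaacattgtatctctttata
Vcl: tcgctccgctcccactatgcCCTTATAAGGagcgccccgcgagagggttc
Acta1: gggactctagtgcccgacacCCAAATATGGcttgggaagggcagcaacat
Actc1: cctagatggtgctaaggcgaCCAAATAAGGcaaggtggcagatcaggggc
The boxes of *Myl6*, *Srf*, *Acta1* and *Actc1* end 40, 52, 63 and 37 bases before the start site, and those of *Myl9* and *Vcl* 151 and 217 bases before it. *Actc1* was at 2.27 and 1.81 CPM at P14.5 and at 30.4, 22.2 and 20 CPM at L3 (3.03 ± 0.37, adjusted p = 1.7e-06, and 0.0023 with edgeR). *Acta1* was at 3.92 and 4.12 CPM and at 25.8, 19.0 and 9.37 CPM (1.82 ± 0.40, adjusted p = 0.0029). *Myl6*, an essential light chain of myosin, was at 125 and 68.8 CPM and at 288, 268 and 207 CPM (1.43 ± 0.33, adjusted p = 0.0047). All 3 genes were higher in every L3 library than in both P14.5 libraries.

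The receptors through which contraction is triggered, and their signalling, were taken as a second list of 27 genes, all measured. Of these, 3 rose, compared with 2.2% of all genes, and none fell (median log2 fold change 0.95, and 0.80 without P14.5 replicate 5). With edgeR 2 of the 3 were also called, and with basal libraries only 1. *Oxtr*, the oxytocin receptor, was at 485 and 518 CPM at P14.5 and at 4323, 3617 and 1486 CPM at L3 (2.51 ± 0.87, adjusted p = 0.057, and 0.086 with edgeR). The L3 libraries all lay above P14.5, with L3 replicate 6 well below the other two, and the difference did not pass the test. *Plcb1*, a phospholipase C downstream of such receptors, rose from 57.8 and 24 CPM to 221, 256 and 119 CPM (2.30 ± 0.44, adjusted p = 7.5e-04, and 0.003 with edgeR). *Ppp1r12b*, a regulatory subunit of myosin phosphatase, was at 118 and 114 CPM and at 684, 731 and 459.6 CPM (2.39 ± 0.47, adjusted p = 0.0011, and 0.0061 with edgeR). *Adra1b*, an alpha-1 adrenergic receptor, was low throughout, at 1.03 and 0.165 CPM and at 2.41, 4.95 and 11.8 CPM (2.05 ± 0.40, adjusted p = 8.8e-04, and 0.070 with edgeR).

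Of 23 calcium and potassium channel and pump genes, 3 rose, again beside 2.2% of all genes, and none fell (median 0.85). *Atp2b4*, a calcium pump of the plasma membrane, was at 107 and 58.4 CPM at P14.5 and at 476, 761 and 456 CPM at L3 (2.78 ± 0.55, adjusted p = 0.0011, and 0.0057 with edgeR). *Kcnma1*, a calcium-activated potassium channel, was at 30.6 and 22.6 CPM and at 146, 169 and 64.0 CPM (2.11 ± 0.50). *Cacna1h*, a low-voltage calcium channel, was at 7.64 and 4.28 CPM and at 15.1, 55.6 and 50.5 CPM (2.42 ± 0.60, adjusted p = 0.0077, and 0.011 with the sort as a block). The groups were apart for all 3, but neither *Kcnma1* nor *Cacna1h* was called with edgeR, and none of the 3 without P14.5 replicate 5.

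Of 32 integrin, laminin and matrix linker genes, which anchor basal cells to the basement membrane, 3 rose (2.2% over all genes) and none fell (median 0.71), and none of the 3 was called with edgeR or with basal libraries only. *Itga1*, a collagen-binding integrin, was at 94.2 and 67.3 CPM at P14.5 and at 317, 335 and 312 CPM at L3 (2.00 ± 0.51, adjusted p = 0.0093, and 0.013 with the sort as a block). *Lims2*, an adaptor of focal adhesions, was at 24 and 5.10 CPM and at 84.5, 111 and 128 CPM (3.12 ± 0.67). *Ilk*, integrin-linked kinase, was also called, but it did not exceed 4.18 CPM in any of the 5 libraries and 89.7% of its exon bases lie in another gene as well, which leaves its reads ambiguous. *Itgb1*, which encodes the CD29 used in the sort, was at 492 and 412 CPM and at 779, 859.5 and 777 CPM (0.84 ± 0.25, adjusted p = 0.025). The laminin gene *Lama1* (0.65 ± 0.46) and the type IV collagen gene *Col4a1* (-0.03 ± 0.47) did not pass the test.

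Identity genes of basal cells other than the contractile ones gave 1 call, a share close to the 3.89% of all genes. Of 5 basal keratins none passed the test, and *Krt5* was at 1606 and 779 CPM at P14.5 and at 3849, 3583 and 1403 CPM at L3, with overlap. Of 23 basal transcription factors measured, 1 rose: *Nfatc1*, a calcineurin-regulated factor, was at 96.7 and 35.6 CPM and at 128, 173 and 121 CPM (1.23 ± 0.31, adjusted p = 0.0084, and 0.040 with edgeR). Its log2 fold change was 0.52 without P14.5 replicate 5. *Trp63*, the master factor of basal epithelia, was at 500.1 and 464 CPM and at 755, 624 and 559 CPM (0.41 ± 0.76), and *Snai2*, a repressor of epithelial genes, at 90.9 and 87.2 CPM and at 246, 345 and 219 CPM (1.56 ± 0.57, adjusted p = 0.070). For both genes the groups did not overlap and the difference did not pass the test. For *Trp63* the difference was smaller than its standard error, which pools the spread within all 16 conditions. In the basal libraries of Id2, for example, *Trp63* ran from 3.39 to 26.6 CPM. In the Notch pathway the log2 fold change was above 0 for all 15 genes (median 0.97, and 0.62 without P14.5 replicate 5) and 1 rose (2.2% over all genes), *Maml2*, a coactivator, from 151 and 123 CPM to 303, 325 and 255 CPM (1.10 ± 0.25, adjusted p = 0.0043). *Notch3*, a receptor that also marks pericytes, was at 179 and 170.1 CPM and at 301, 1003 and 1298 CPM (adjusted p = 0.011), highest in the library with the most pericyte marker RNA.

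Of 11 milk protein genes, 2 rose in basal cells, where 2.2% of all genes rose, and none fell, and the median log2 fold change was 0.62, which became 1.97 without P14.5 replicate 5 and -0.62 without P14.5 replicate 3. *Csn1s2b*, a casein gene, was at 0 and 3.46 CPM at P14.5 and at 183, 152 and 1068 CPM at L3 (7.20 ± 0.98, adjusted p = 1.4e-05, and 0.0019 with edgeR). *Wap*, whey acidic protein, was at 13.8 and 54.8 CPM and at 836, 310.2 and 2671 CPM (4.94 ± 1.17, adjusted p = 0.0052, and 0.041 with edgeR). L3 replicate 6 was the highest and replicate 5 the lowest for both genes. *Csn2*, the beta-casein gene, was at 2584 and 24300.0 CPM and at 11408, 4626 and 19852 CPM, with P14.5 replicate 5 above every L3 library (0.36 ± 0.94). *Wfdc17*, a whey acidic protein domain gene with close relatives whose reads may be shared, was at 0 and 1.32 CPM and at 65.0, 10.5 and 93.4 CPM (4.77 ± 0.87, adjusted p = 5.0e-04).

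The same genes are far more abundant in luminal cells. The luminal mean of *Csn1s2b* was 18.6 CPM at P14.5 and 20690 CPM at L3 (n = 3 each), that of *Wap* 532 and 53810 CPM, and that of *Wfdc17* 4.25 and 1124 CPM. In luminal cells 5 of the 11 milk protein genes rose (median 2.50), where 3.19% of all genes rose. The casein genes *Csn1s1*, *Csn1s2a*, *Csn1s2b*, *Csn2* and *Csn3* together with *Wap* took 0.629 and 5.25% of the reads of the P14.5 basal libraries and 2.06, 0.759 and 4.42% of those at L3. The order of the L3 libraries in that share was the order of their *Csn1s2b* and *Wap* levels. Whether this RNA was made by basal cells was not tested. In lipid and sterol synthesis, 1 of 28 genes measured rose, near the 2.2% of all genes (median 0.24, but 0.69 without P14.5 replicate 5 and -0.12 without P14.5 replicate 3), *Srebf2*, a regulator of cholesterol genes, from 100.4 and 91.5 CPM to 456, 419 and 181 CPM (1.76 ± 0.34, adjusted p = 8.7e-04, and 0.0018 with edgeR).

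The 12 genes with the largest fall were *Opcml*, *Pdgfra*, *Mmp3*, *Rspo1*, *Gjb2*, *C3*, *Adamts18*, *Car2*, *Tnfrsf19*, *Sfrp2*, *Chadl* and *Frem1*. All 12 fell with limma, 8 of them also with edgeR (*Opcml*, *Rspo1*, *Gjb2*, *Adamts18*, *Car2*, *Tnfrsf19*, *Sfrp2* and *Chadl*), and 3 without P14.5 replicate 5 (*Opcml*, *Mmp3* and *Car2*).

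*Opcml*, a cell adhesion molecule anchored in the membrane, was at 52.5 and 73.1 CPM at P14.5 and at 3.21, 0 and 0 CPM at L3 (-5.28 ± 0.84, adjusted p = 1.0e-04, and 0.0029 with edgeR). *Adamts18*, a secreted metalloproteinase, was at 189 and 163 CPM and at 13.2, 19.2 and 6.59 CPM (-3.77 ± 0.71, adjusted p = 6.8e-04, and 0.005 with edgeR). Both genes were low in luminal cells, with P14.5 luminal means of 2.82 CPM for *Opcml* and 1.91 CPM for *Adamts18*. *Adamts18* was as high in mice that had not been pregnant, at 127 to 396 CPM in the 3 basal libraries of W10, and was at 2.66 and 3.67 CPM in those of L10. *Chadl*, a small leucine-rich matrix protein gene of whose exon bases 19.5% overlap another gene, was at 38.4 and 76.7 CPM and at 5.77, 3.68 and 2.41 CPM (-3.54 ± 0.74). *Chadl* also fell in luminal cells, with means of 27.1 CPM at P14.5 and 0.666 CPM at L3 (-4.18, adjusted p = 3.9e-05). *Frem1*, a basement membrane matrix gene, was at 26.2 and 18.3 CPM and at 1.20, 0.127 and 2.51 CPM (-3.48 ± 0.81, 0.029 with edgeR).

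The Wnt list, with 23 genes measured, held 1 fall, that of *Rspo1*, where 1.69% of all genes fell, and a median of 0.10, which became -0.07 without P14.5 replicate 5 and 0.41 without P14.5 replicate 3. *Rspo1*, a secreted enhancer of Wnt signalling, was at 46.5 and 229 CPM at P14.5 and at 8.34, 6.85 and 1.30 CPM at L3 (-4.24 ± 0.99, adjusted p = 0.0050, and 0.18 without P14.5 replicate 5). Its luminal mean was 615 CPM at P14.5 and 3.05 CPM at L3. Outside the list, *Sfrp2*, a secreted Wnt antagonist, was at 58.2 and 25.5 CPM and at 2.09, 0.254 and 7.33 CPM (-3.64 ± 0.74, adjusted p = 0.0015, and 0.0083 with edgeR), and *Tnfrsf19*, a receptor of the tumour necrosis factor family known as a Wnt target, at 16.7 and 17.1 CPM and at 0.160, 0.508 and 0.464 CPM (-3.71 ± 0.68, adjusted p = 4.9e-04). The luminal mean of *Tnfrsf19* was 26.4 CPM at P14.5 and 4.48 CPM at L3 (-2.19, adjusted p = 0.012). For *Rspo1* the higher P14.5 value was that of the library with the most luminal marker RNA, whereas for *Sfrp2* it was replicate 3, the library with the most fibroblast marker RNA. At L3, too, *Sfrp2* was highest in replicate 6, which held the most fibroblast marker RNA of the L3 libraries.

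Several genes that fell were abundant in luminal cells. *Gjb2*, which encodes connexin 26 of gap junctions, was at 62.0 and 143 CPM at P14.5 and at 8.34, 1.14 and 9.09 CPM at L3 (-4.02 ± 0.74, adjusted p = 5.7e-04, and 0.0019 with edgeR), with a luminal mean of 542 CPM at P14.5. *Gjb6*, which encodes connexin 30, was at 6.20 and 19.1 CPM and at 0, 0 and 1.21 CPM (-3.21 ± 0.69), with a luminal mean of 97.8 CPM. These were the 2 members that fell among 15 cadherin and connexin genes (median 0.61, and 0.36 without P14.5 replicate 5, none rose), where 1.69% of all genes fell. *Erbb3*, a receptor of neuregulins, fell from 25.8 and 80.8 CPM to 15.3, 1.65 and 11.0 CPM (-2.54 ± 0.60), with a luminal mean of 233 CPM. In the same EGF family list of 12 genes, 1 fell (1.69% of all genes) and 1 rose (2.2% of all genes). The rise was that of *Nrg2*, a neuregulin, from 3.72 and 2.63 CPM to 15.2, 34.5 and 11.2 CPM (2.21 ± 0.42). Neither gene was called with edgeR (adjusted p = 0.011 for *Erbb3* and 0.082 for *Nrg2*) or with basal libraries only. Without P14.5 replicate 5 their log2 fold changes were -1.74 and 2.02. *Cd24a*, a marker used in the sort and one of the luminal markers, was at 316 and 925 CPM and at 215, 179.9 and 124 CPM (-1.67 ± 0.41, adjusted p = 0.0073, 0.0034 with edgeR and 0.36 without P14.5 replicate 5). For *Gjb2*, *Gjb6*, *Erbb3* and *Cd24a* the highest value was in P14.5 replicate 5, as was the luminal marker sum. The median of the 14 luminal markers was -1.42, and -0.10 without that library. Of the genes that fell, 61.2% had a higher mean in luminal than in basal cells at P14.5, compared with 29.0% of those that rose and 49.6% of all genes.

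*Car2*, which encodes carbonic anhydrase 2, was at 114 and 100.4 CPM at P14.5 and at 7.62, 2.66 and 15.7 CPM at L3 (-3.74 ± 0.56, adjusted p = 5.4e-05, and 0.0033 without P14.5 replicate 5). It was at 5.83 to 9.17 CPM in the 3 basal libraries of P3.5 and at 4.84 and 15.6 CPM in those of L10, so the P14.5 libraries were the high ones. The rise from P3.5 to P14.5 passed the same test (adjusted p = 5.8e-05), in a comparison that shares the P14.5 libraries. P3.5 and P14.5 also share the amplification batch, but not the lane. In luminal cells the mean of *Car2* was 313 CPM at P14.5 and 215 CPM at L3.

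*Mmp3*, *C3* and *Pdgfra* fell, and are given beside the fibroblast marker RNA, which was lowest in L3 replicates 4 and 5. *Mmp3*, stromelysin, was at 49.8 and 28.1 CPM at P14.5 and at 0.321, 0.127 and 1.86 CPM at L3 (-4.57 ± 0.79, adjusted p = 2.8e-04, and 0.013 with edgeR). *Pdgfra*, a fibroblast receptor (CD140a), was at 214 and 136 CPM and at 1.84, 0.254 and 75.8 CPM (-4.72 ± 1.20, adjusted p = 0.0092, and 0.16 with edgeR). The lineage panel held an antibody to CD140a, with the antigen listed as human. *C3*, complement component 3, was at 1770.4 and 1730.1 CPM and at 55.6, 18.3 and 1481 CPM (-3.90 ± 0.88, adjusted p = 0.0034, and 0.19 with edgeR). *C3* was also abundant in luminal cells and fell there, with means of 4578 CPM at P14.5 and 623 CPM at L3 (-2.93, adjusted p = 0.0092). In *Pdgfra* and *C3* L3 replicate 6 was closer on the log2(CPM + 1) scale to the P14.5 libraries than to the other L3 libraries, and it was also the L3 library with the highest fibroblast marker sum. Of the 10 fibroblast markers 1 fell, beside 1.69% of all genes, with a median of -2.40. Without P14.5 replicate 5, P14.5 replicate 3 or L3 replicate 6 that median was -3.04, -1.58 or -3.45. *Col1a1* was at 3507 and 2329 CPM and at 164, 373 and 1769.5 CPM (-2.58 ± 1.30, adjusted p = 0.21). Of 27 fibrillar collagen and matrix remodelling genes, *Mmp3* was the 1 that fell, near the 1.69% of all genes, and none rose (median -0.46, and 0.07 without P14.5 replicate 3).

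Genes of cell division, on a list of 30, gave no call, and the median log2 fold change was -0.91. For 27 of the 30 the fold change was below 0, and for 19 the L3 libraries lay wholly below P14.5, which held for 17.9% of all genes. *Top2a*, a topoisomerase of dividing cells, was at 58.5 and 82.1 CPM at P14.5 and at 40.9, 31.0 and 34.5 CPM at L3 (-0.96 ± 0.83, adjusted p = 0.50), and *Mki67*, the proliferation marker, was at 129.9 and 94.8 CPM and at 50.7, 83.2 and 109 CPM, with overlap. In luminal cells the median of the list was -1.06, with 4 falls, where 2.97% of all genes fell. Of 8 cell cycle inhibitors measured none passed the test (median 0.30).

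The remaining lists held no call. Medians were 0.32 for 13 genes of the prolactin, JAK2 and STAT5 axis, -0.22 for 10 steroid receptor and paracrine genes, 0.40 for 14 genes of the IGF and insulin axis, 0.17 for 21 genes of the TGF beta and BMP pathway, -0.81 for 6 genes of the lysophosphatidic acid axis and -0.02 for 18 interferon and antigen presentation genes. Without P14.5 replicate 5 these medians were 0.34, -0.42, 0.27, 0.04, -1.15 and -0.09, and without P14.5 replicate 3 they were 0.24, -0.27, 0.61, 0.34, -0.63 and 0.07. Without L3 replicate 6 they were 0.64, -0.07, 0.28, 0.03, -0.87 and -0.14. *Pgr*, the progesterone receptor, was at 12.8 and 13.8 CPM and at 23.5, 27.7 and 4.08 CPM, and *Stat5a*, the transducer of prolactin, at 40.3 and 41.5 CPM and at 44.4, 59.8 and 39.7 CPM, each with overlap. The 16 early response and heat shock genes, which are known to respond to tissue dissociation, had a median of 1.04, and for 13 of them L3 lay wholly above P14.5, which held for 18.6% of all genes. *Fos* was at 1689.9 and 1252 CPM and at 3688, 4518 and 3492 CPM (1.41 ± 0.57, adjusted p = 0.11). The part of this response in the other changes was not tested. Endothelial (0.89), immune (0.62), red blood cell (1.13) and Schwann cell markers (-0.59) held no call, and the pericyte list (1.66) held *Des* alone. Without P14.5 replicate 5 the medians were 0.19 for endothelial and -0.23 for immune markers and 0.65 for the early response list, and without L3 replicate 6 they were 0.95 for pericyte and -0.14 for immune markers. Without P14.5 replicate 3 they were 1.66 for endothelial and -0.38 for Schwann cell markers.

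**Figure D4:**
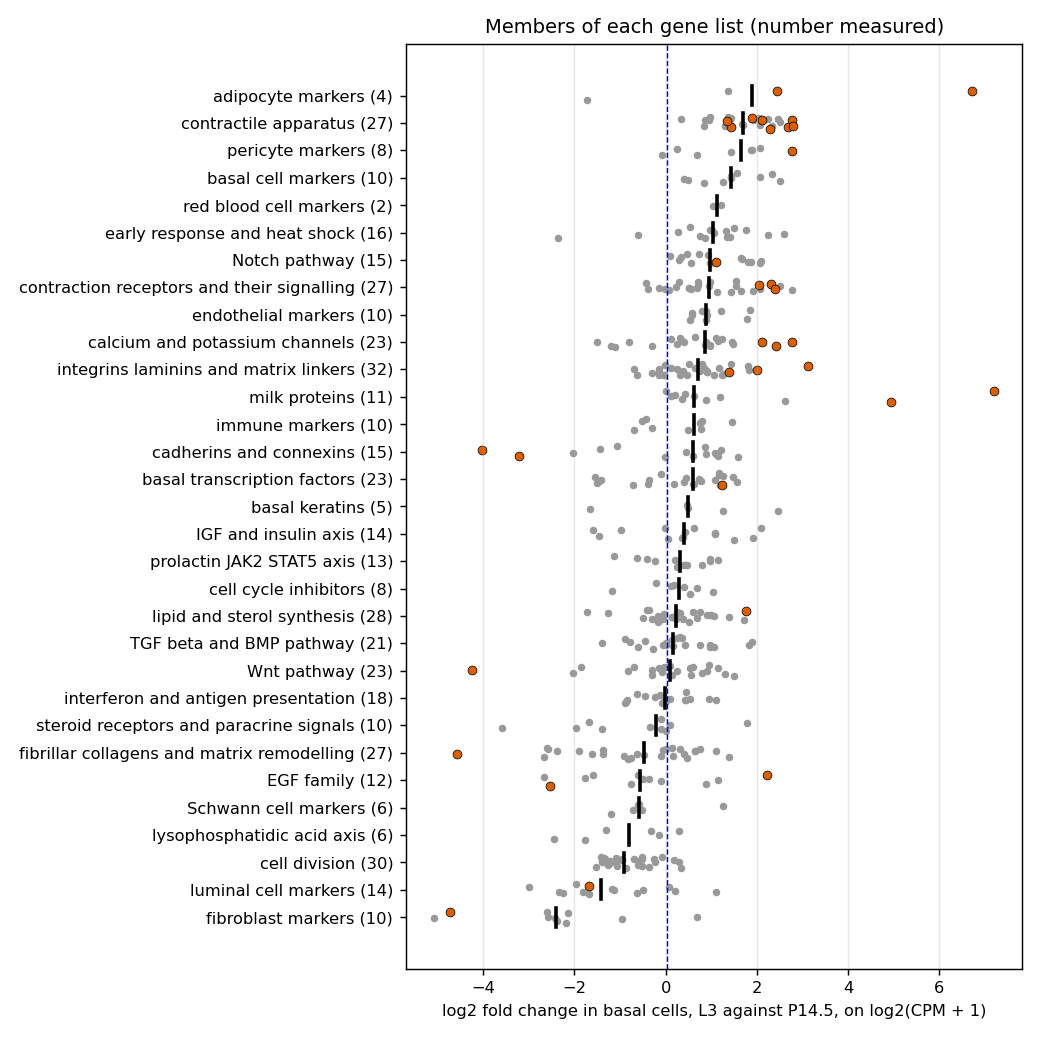
Log2 fold change (L3 over P14.5, on the log2(CPM + 1) scale) in basal cells of every measured gene of each list, one point per gene, with the median of each list as a bar, the median over all genes as a dashed line and the genes that passed the test in orange. The contractile list lies wholly above 0, and the cell division list lies mostly below it with no gene in orange.

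Which changes differed between basal and luminal cells was tested in the same model as the change in basal cells minus the change in luminal cells (3 luminal libraries at each time point). The difference passed the test for 120 genes (0.703%), 54 of them with a higher change in basal cells (0.316%) and 66 with a lower one (0.386%), and for 314 with the sort as a block. Without P14.5 replicate 3, P14.5 replicate 5 or L3 replicate 5 it passed for 72, 71 and 48 genes. Of the 376 genes that rose in basal cells, 44 also rose in luminal cells and 1 fell there, and of the 289 that fell, 86 also fell in luminal cells and 1 rose. In luminal cells 545 genes rose (3.19%) and 508 fell (2.97%). *Lep* (5.96 ± 0.72), *Tnni2* (5.12 ± 0.63) and *Ppp1r12b* (3.07 ± 0.64) had larger changes in basal cells. *Timp4* differed by 3.36 ± 0.65. With edgeR none of these 4 differences passed the test, with adjusted p of 0.17 for *Lep*, 0.056 for *Tnni2*, 0.016 for *Ppp1r12b* and 0.32 for *Timp4*, and edgeR called 43 differences in all. *Timp4* was below 1 CPM on average in luminal cells at both time points.

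For some genes the luminal change accounted for most of the difference. *Ccn2*, a matricellular protein gene, was at 422 and 346 CPM in basal cells at P14.5 and at 554, 498 and 783 CPM at L3, while its luminal mean was 246 CPM at P14.5 and 18.5 CPM at L3 (difference 4.35 ± 0.93, adjusted p = 0.0068). *Atp2b2*, a calcium pump that moves calcium into milk, was at 6.82 and 3.95 CPM and at 8.66, 9.64 and 16.9 CPM in basal cells, while its luminal mean was 3.78 and then 324 CPM (-4.94 ± 0.95, adjusted p = 0.0029). *Sfrp2* moved in opposite directions, with the fall in basal cells given above and luminal means of 3.01 CPM at P14.5 and 78.1 CPM at L3 (-8.04 ± 1.00, adjusted p = 5.3e-06). *Dsc3*, a desmosomal cadherin, was at 116 and 27.5 CPM and at 7.22, 9.90 and 12.2 CPM in basal cells and had luminal means of 2.66 and 38.4 CPM (-5.62 ± 1.24). The median contractile log2 fold change was 0.52 in luminal cells, and no gene of that list passed the test of the difference. The 10 basal markers summed to 684, 579 and 530 CPM in the luminal libraries of P14.5 and to 1082, 1657 and 738 CPM in those of L3. Their median log2 fold change was 1.96 in luminal and 1.43 in basal cells. The part of basal cell RNA in the luminal changes was not tested.

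**Figure D5:**
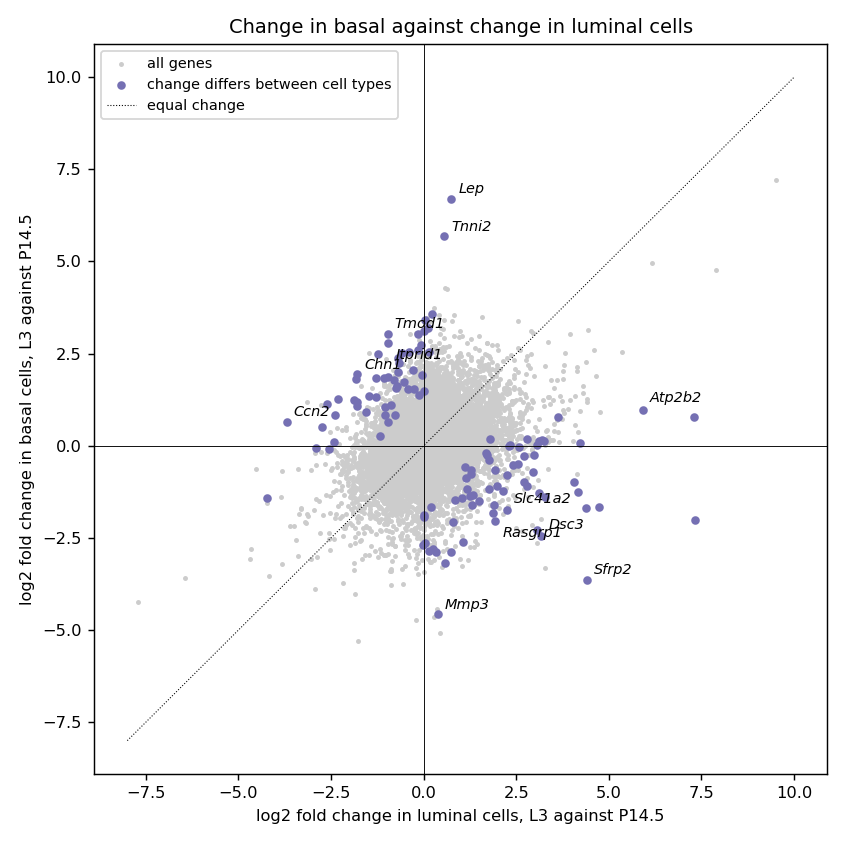
Log2 fold change from P14.5 to L3 in basal cells (vertical axis) against that in luminal cells (horizontal axis), on the log2(CPM + 1) scale, one point per gene, with the 120 genes whose changes differed marked. Of the labelled genes, *Sfrp2* lies farthest below the diagonal, and *Lep* and *Tnni2* lie farthest above it.

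The neighbouring time points place the L3 values. At L10, with 2 basal libraries, the mean of *Oxtr* was 2792 CPM, compared with 3142 CPM at L3, 502 CPM at P14.5 and 579 CPM at P3.5. That of *Casq2* was 272 CPM at L10 and 14.6 CPM at P3.5, and that of *Hspb6* 652 and 40.2 CPM. In the basal libraries of W10 the mean was 1665 CPM for *Oxtr* (1133 to 2403 CPM), 6.06 CPM for *Casq2* and 33.1 CPM for *Hspb6*. The W10 values of *Oxtr* thus overlapped those of L3, and P3.5 and P14.5 were lower than both. These genes were near their L3 level at L10 and near their P14.5 level at P3.5. *Tnni2* differed, with a mean of 60.7 CPM at L3 and 7.62 CPM at L10 (log2 fold change L10 over L3 -2.86, adjusted p = 4.3e-04), and *Adra1b* was higher at L10, at a mean of 29.9 CPM (2.21, adjusted p = 9.05e-04). Pericyte marker RNA was also higher at L10, at 9298 and 16384 CPM, and *Adra1b* followed its order over the 5 libraries of L3 and L10. The part of pericytes in *Adra1b* was not tested. Both comparisons share the L3 libraries, and L3 and L10 share their amplification batch but not their lane.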

How the data were processed

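Basal libraries of P14.5 (replicates 3 and 5) and L3 (replicates 4, 5 and 6) were compared. One of 47 samples described was not analysed here. The authors amplified RNA, aligned the reads with GSNAP to mm9, counted them per Ensembl gene with htseq-count, and dropped lowly expressed genes (below 1 CPM across 3 samples) as well as highly covered genes that hardly varied. The amplification does not mark strand. The deposited signal is the read count over edgeR's effective library size, in CPM. Whole reads were recovered for 100% of the values, at tolerances of 0.02 reads and, relative to the count, 0.01%. The table holds 17078 genes by Ensembl identifier, 16897 of which were given a symbol, and every column was used. The floor of 3 reads covers counting error only. Libraries of a group are separate sorts.

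Log2(CPM + 1) was tested with limma 3.58.1 (R 4.3.3), with a mean for each of 16 conditions over 46 libraries and a mean-variance trend, since P14.5 has 2 basal libraries. Calls needed a fold change of 2 and a Benjamini-Hochberg FDR under 0.01 over all genes. All adjusted p are of this kind, edgeR 4.0.16 where named. The scale understates changes of low genes. On simulated data this limma model made more false calls than its FDR allows, most of them of genes under 5 CPM. Limma on basal libraries made fewer and edgeR the fewest, but each still made more than its FDR allows. The adjusted p of this limma model were thus too small on the simulated data and may be too small here. Whether these false call rates hold for the real libraries was not tested. Counts by limma on basal libraries and by edgeR are given beside those of this model. The members and the 31 lists (472 symbols, 454 measured) were chosen with earlier results of these data known. Named are the 12 largest rises and falls with no overlap and a mean of at least 5 CPM in the higher group, up to 5 called members of each pathway list, all basal markers, the leading gene of the other marker lists, the 6 largest differences from luminal cells in each direction (at least 5 CPM in a basal group), and list members given by value. *Actc1* and *Acta1* fall outside the rule.

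Per the labels, the luminal and basal cells of a sort came from the same animals. Their deviations from condition means correlated at a median of 0.25 across genes over 22 pairs, 21 of them positive (0.116, 0.0422 and 0.147 in the L3 sorts, -0.00479 and 0.0954 in those of P14.5), and the sort was also fitted as a block (consensus correlation 0.179). Alternatives were a pseudocount of 0.1, a mean of at least 5 CPM, median ratio scaling, edgeR on the reads, the block, an FDR of 0.05, adjustment over the 12139 genes that vary, basal libraries only, the groups compared only, each basal library left out in turn and, chosen after seeing the data, P14.5 replicate 5 and L3 replicate 6 left out together. Promoters came from RefSeq annotation of a later build (GRCm38.p6), and exon overlap came from GENCODE annotation of GRCm38. No coordinates were used across builds.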

Additional observations from a re-analysis of the deposited data

Results flagged for a closer look

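For 14 of the named genes the change from P14.5 to L3 differed between basal and luminal cells in the limma model, given as the log2 fold change in basal minus that in luminal cells. It was 5.96 for *Lep*, 5.12 for *Tnni2*, 4.35 for *Ccn2*, 4.02 for *Tmod1*, 3.74 for *Itprid1*, 3.74 for *Chn1*, 3.36 for *Timp4* and 3.07 for *Ppp1r12b*. It was -8.04 for *Sfrp2*, -5.62 for *Dsc3*, -4.94 for *Mmp3*, -4.94 for *Atp2b2*, -3.98 for *Slc41a2* and -3.97 for *Rasgrp1*. Of the 14, 4 also passed with edgeR (*Sfrp2*, *Atp2b2*, *Slc41a2* and *Chn1*), and the adjusted p of the other 10 was then 0.011 for *Dsc3*, 0.014 for *Itprid1*, 0.016 for *Ppp1r12b*, 0.021 for *Ccn2*, 0.033 for *Rasgrp1*, 0.051 for *Tmod1*, 0.056 for *Tnni2*, 0.065 for *Mmp3*, 0.17 for *Lep* and 0.32 for *Timp4*. *Tmod1*, which caps the slow end of actin filaments, was at 1.45 and 0.494 CPM at P14.5 and at 13.4, 9.77 and 24.2 CPM at L3 in basal cells, and 32.6% of its exon bases overlap another gene. The rises of *Chn1* and *Itprid1* in basal cells also passed with edgeR (adjusted p = 0.0081 and 0.0053). *Chn1*, a Rac-regulating protein gene, was at 3.10 and 1.81 CPM and at 8.5, 7.11 and 27.6 CPM, highest in the L3 library with the most pericyte and fibroblast marker RNA. *Itprid1* was at 13.2 and 6.09 CPM and at 95.6, 109 and 30.6 CPM, and at 69.0 to 133 CPM in the basal libraries of W10. *Slc41a2*, a magnesium transporter gene, was at 21.9 and 23.4 CPM and at 7.86, 2.54 and 10.2 CPM in basal cells, with luminal means of 9.78 CPM at P14.5 and 52.5 CPM at L3. *Rasgrp1*, a Ras activator, was at 7.85 and 6.75 CPM and at 2.01, 0 and 1.76 CPM, with luminal means of 3.09 and 18.9 CPM.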

How the results depend on the processing

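Counts are given as genes higher at L3, genes lower at L3 and genes whose change differed from luminal cells, compared with 376, 289 and 120. They were 219, 265 and 49 with a pseudocount of 0.1, and 119, 253 and 43 with edgeR on the recovered reads. At an FDR of 0.05 they were 834, 666 and 561, and with only the libraries of the groups compared in the fit they were 0, 0 and 7, with 1665 genes higher and 1462 lower at an unadjusted p under 0.05 there, where limma had few libraries from which to estimate the spread. With basal libraries only, 138 were higher and 113 lower. With P14.5 replicate 5 and L3 replicate 6 both left out, a choice made after seeing the data, 67 were higher and 81 lower. The filter on a mean of at least 5 CPM, which tests fewer genes, gave 70 that differed from luminal cells. With one basal library left out at a time, 40 to 362 were higher, 46 to 264 lower and 48 to 160 different from luminal cells, the lowest counts of higher and of lower genes without P14.5 replicate 5. Apart from the groups-only fit, the cause of these shifts was not tested. Of the 62 named genes, *Krt14*, which did not pass the test, changed sign, from 0.49 to -0.15 without P14.5 replicate 5, and the other 61 kept their direction under every alternative that tested them. Of the 47 of them that passed the test, 25 missed it with edgeR, 25 with basal libraries only, 20 with the pseudocount of 0.1 and 38 without P14.5 replicate 5. Both P14.5 libraries were shallower than every L3 library, and the effect of depth on the calls was not tested.

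With the sort as a replicate block, 356 genes were higher, 280 lower and 314 differed from luminal cells. The block lost 3 of the 47 calls of a change in basal cells (*Des*, *Cacna1h* and *Itga1*) and that of *Mrtfa*, a contractile gene outside the 62. It added calls of a difference from luminal cells, such as *Casq2* (adjusted p = 0.0053, 0.014 without the block) and *Car2* (0.0048, 0.015 without the block). With edgeR neither of these differences passed the test (adjusted p = 0.36 for *Casq2* and 0.030 for *Car2*).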
